A study of Mus musculus with 8 samples.

Results

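The 6 histone deacetylase genes Hdac1, Hdac2, Hdac3, Hdac4, Hdac5 and Hdac7 and the 4 DNA methylation genes Dnmt1, Uhrf1, Dnmt3a and Dnmt3b were taken from a list of symbols that was drawn up with earlier results of these data known, and all 10 were found among the 23403 genes of the RNA-seq count table. The cells were Hepa-1 (Hepa-1c1c7), an established mouse hepatoma line. RNA-seq covered 2 libraries of cells given 25 µM Cr(VI) for 90 minutes, called Cr25, and 2 of controls; the labels leave out which regimen these controls belong to. FAIRE-seq, which recovers the DNA left in the aqueous phase after crosslinking and phenol/chloroform extraction, covered 4 libraries, 1 each of cells given 25 µM Cr(VI) for 90 minutes (acute), cells kept at 0.5 µM Cr(VI) over 20 passages (long-term) and the control of each. Total counts per RNA-seq library were 32877791 and 32319676 in Cr25 replicates 1 and 2, and 33303645 and 37696116 in control replicates 1 and 2.

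Histone deacetylases remove acetyl groups from histone tails, and class I enzymes such as Hdac1, Hdac2 and Hdac3 do so inside large corepressor complexes, whereas class IIa enzymes such as Hdac4, Hdac5 and Hdac7 shuttle between nucleus and cytoplasm when kinases phosphorylate them. Dnmt1 copies CpG methylation onto the new strand after replication, Uhrf1 brings it to hemimethylated DNA, and Dnmt3a and Dnmt3b methylate CpGs that carried no mark. In differentiated liver cells Dnmt1 is usually the main methyltransferase, and the Dnmt3 enzymes are best known from early development.

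The labelled cell type was set beside marker genes first. Of the hepatocyte lineage markers, Krt8, Krt18, Alb and Afp were abundant, with Afp at 129 and 178 CPM in Cr25 and 149 and 151 CPM in control libraries, where CPM is the count scaled to library size with TMM factors. The liver regulator Hnf4a was near the bottom, at 0.443 and 0.518 CPM in Cr25 and 0.230 and 0.256 CPM in control libraries, and Ttr stood at 1.80, 1.97, 0.345 and 0.333 CPM in the same order. Of the 7 markers of fibroblasts, leukocytes and endothelium, Thy1 and Cdh5 had 0 counts in each of the 4 libraries, which allows up to 3 counts per library, and Ptprc was at 0.0863 CPM or less. The other leukocyte marker, Cd68, was at 5.08 and 22.1 CPM in Cr25 and 7.77 and 8.29 CPM in control libraries, so the treated pair lay on either side of the controls. Pdgfrb, a fibroblast marker, was at 80.4 and 41.7 CPM in Cr25 and 46.7 and 47.6 CPM in control libraries. The list summed to 322 and 430 CPM in Cr25 and 258 and 263 CPM in control libraries, most of it from Col1a1 (234, 364, 203 and 207 CPM). Thy1, Ptprc and Cdh5 were too low to test, and 3 of the other 10 markers passed the test described with the main comparison, which called 4.63% of all tested genes, all 3 higher in Cr25: Alb with a log2 fold change of 1.96 (SE 0.196, adjusted p = 0.0316, edgeR with Benjamini-Hochberg adjustment), Ttr with 2.46 (SE 0.286, adjusted p = 0.0332, edgeR) and Pecam1, an endothelial adhesion gene at 1.77, 2.24, 0.489 and 0.486 CPM, with 2.03 (SE 0.295, adjusted p = 0.0438, edgeR). Without control replicate 1 or 2, which leaves 1 control library, these 3 calls were lost. The log2 fold changes there were 1.91 and 1.98 for Alb, 2.47 and 2.42 for Ttr, and 2.02 and 2.01 for Pecam1. In bulk RNA, fewer cells of a type and less RNA per cell cannot be told apart, and the part of the marker changes in the values below was not tested.

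The levels of the 10 genes were compared with each other as CPM per kilobase of the union of annotated exons. In control libraries Hdac1 (61.0 ± 2.29, SD, n = 2) and Uhrf1 (60.1 ± 0.490) stood highest and did not differ beyond their spread, followed by Dnmt1 (53.4 ± 0.0541). Hdac3 (38.1 ± 1.50) and Hdac2 (37.9 ± 0.731) came next and also lay within their spread. The class IIa genes were lower, with Hdac5 at 11.3 ± 0.0370, Hdac7 at 8.49 ± 0.0541 and Hdac4 at 2.27 ± 0.198 CPM per kb. The de novo enzymes were the lowest of the 10, with Dnmt3a at 0.960 ± 0.0229 and Dnmt3b at 0.847 ± 0.0522 CPM per kb. The order depends in part on the length used: the exons of Hdac7 add up to 15561 bp and those of Dnmt3a to 24667 bp, against 4387 and 9735 bp for their longest curated transcripts, and per kb of the latter, an alternative chosen after the data were seen, Hdac7 came to 30.1 and stood above Hdac5 at 12.5. On that length Hdac2 (51.4 ± 0.991) and Hdac3 (39.1 ± 1.54) also differed beyond their spread.

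The main comparison asked how acute Cr(VI) changed the RNA of these genes. Dnmt1 and Uhrf1 had lower values and Dnmt3b, Hdac5, Dnmt3a and Hdac3 higher values in both Cr25 libraries than in both controls, and none of the 10 genes passed the test over all tested genes. The test was edgeR's quasi-likelihood test with Benjamini-Hochberg adjustment over 13619 genes and a threshold of 0.05, which called 631 genes (4.63%), 243 higher and 388 lower in Cr25. All 10 passed the filter on low counts, 0 of 10 were called, and 3 of 10 (Dnmt1, Dnmt3b and Hdac5) had an unadjusted p under 0.05, as had 4176 of the tested genes. DESeq2 called those 3 genes, against 2073 (15.2%) of the 13619 tested genes, 1057 higher and 1016 lower. The Cr25 libraries did not overlap the controls for 6 of the 10 genes, a share close to the 66.3% of all tested genes. The labels do not say whether replicates were separate cultures, so the p-values measure the spread between these libraries, which may be technical.

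That spread was unequal between the groups. In 1404 tested genes (10.3%) the 2 Cr25 libraries were more than 2-fold apart, against 83 (0.609%) for the control pair. A fit without Cr25 replicate 1 leaves 1 treated library, which is assumed to vary like the controls, and it called 10995 genes and all 10 members; without Cr25 replicate 2 it called 9333 genes and 6 members. Without control replicate 1 or 2 it called 294 and 287 genes and none of the members. For each member the values of the single libraries are therefore given before the test.

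**Figure D1:**
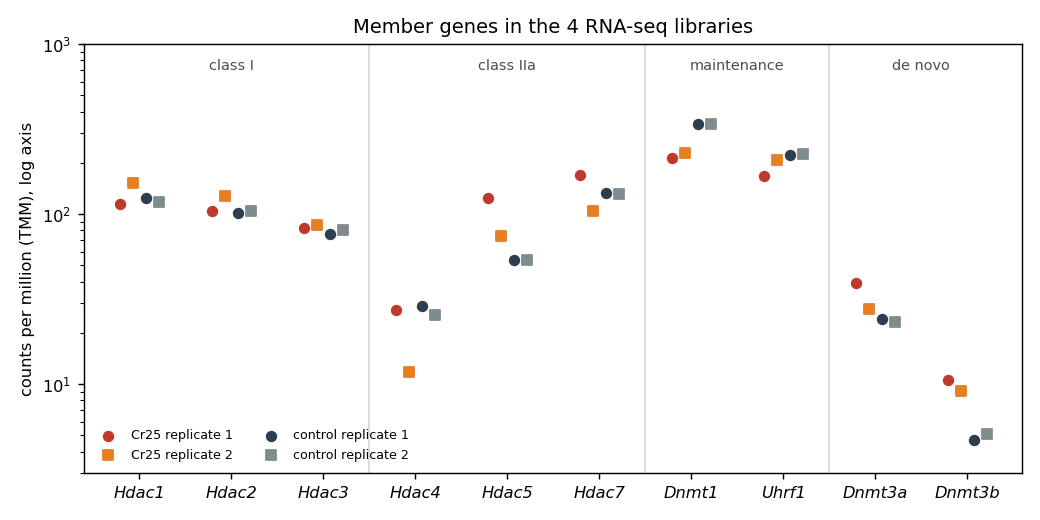
TMM-scaled CPM of the 10 genes in each of the 4 RNA-seq libraries on a log axis, 1 point per library. The control points of each gene nearly coincide (Dnmt1 at 338 and 338), while the Cr25 points of Hdac4 lie at 27.1 and 11.8.

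Among the maintenance genes, Dnmt1 (mm10 chr9:20907206-20959888, minus strand) was measured at 213 and 228 CPM in Cr25 and at 338 and 338 CPM in control libraries. Both treated libraries lay below both controls, and the treated pair was close together: 86.4% of tested genes had a pair at least as far apart. The log2 fold change was -0.62 (SE 0.118, 95% interval -0.93 to -0.30, adjusted p = 0.0624, edgeR), which missed the threshold. DESeq2 gave -0.60 with an adjusted p of 0.0194, and the fold change in fits that left out 1 library ran from -0.67 to -0.56. Of all tested genes, 28.7% had a fold change at least as large. With no normalization beyond library size that of Dnmt1 was -0.73 (adjusted p = 0.048, edgeR), and Dnmt1 was the 1 member called in that setting. Uhrf1, the partner that recruits Dnmt1, was at 167 and 207 CPM in Cr25 and 222 and 225 CPM in control libraries. Both of its treated values were lower, though by amounts that differed between the libraries, and its log2 fold change was -0.26 (SE 0.148, adjusted p = 0.304, edgeR). It was -0.10 without Cr25 replicate 1 and -0.42 without Cr25 replicate 2.

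The de novo genes had values in the other direction. Dnmt3b (mm10 chr2:153649411-153687730, plus strand) was at 10.6 and 9.05 CPM in Cr25 and at 4.69 and 5.12 CPM in control libraries, from 358, 262, 163 and 200 counts. Its log2 fold change was 1.00 (SE 0.190, 95% interval 0.49 to 1.51, adjusted p = 0.0620, edgeR), and DESeq2 gave 1.02 with an adjusted p of 0.0107. The fold change of Dnmt3b stayed between 0.89 and 1.10 in fits that left out 1 library, and 14.4% of tested genes had one at least as large. A copy, Dnmt3b-ps1, is annotated at chr2:153706484-153730013 and is not among the genes used here, so the Dnmt3b count is uncertain where reads fit both. Dnmt3a was at 39.5 and 27.7 CPM in Cr25 and 24.1 and 23.3 CPM in control libraries, with a log2 fold change of 0.50 (SE 0.210, adjusted p = 0.192, edgeR). Its value came mainly from Cr25 replicate 1: without that library it was 0.24, and without Cr25 replicate 2 it was 0.74.

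A ratio of 2 genes within a library needs no scaling between libraries, and these ratios were chosen after the values were seen. For each 100 counts of Dnmt1 there were 4.97 and 3.97 counts of Dnmt3b in Cr25 and 1.39 and 1.51 in control libraries. The ratio was 3.07 times as high in Cr25 by geometric means. Since Dnmt3b and Dnmt3a were higher and Dnmt1 lower in both Cr25 libraries, ratios of either to Dnmt1 could not overlap between the groups. Dnmt3a came to 18.5 and 12.1 counts per 100 of Dnmt1 in Cr25 and 7.12 and 6.89 in control libraries, and Uhrf1 to 78.5 and 90.8 against 65.7 and 66.5. Within the DNA methylation genes, then, the share of Dnmt1 was lower in both treated libraries, as a description of 4 libraries with no test.

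An E2F consensus was found in a promoter window of Dnmt1 and of Uhrf1, 2 of the 8 members with windows, and these windows are shown. They were 2 of the 16 member windows, and 2.12% of all genes with windows had a match. Windows of 300 bases, from 250 before to 50 after an annotated start (RefSeq, mm10), were at hand for 8 of the 10 genes, not for Hdac1 and Hdac3. The letters TTTGGCGC, TTTCGCGC and TTTCCCGC, on either strand, occurred in 1.84% of 32851 windows of all genes, in 1 window of Dnmt1 (chr9:20952574-20952873, minus strand) and in 1 of Uhrf1 (chr17:56304063-56304362, plus strand). In the Dnmt1 window 216 bases, and in the Uhrf1 window 118 bases, lie in annotated exons. Capitals mark the matches, and a match is only a description.
Dnmt1 window: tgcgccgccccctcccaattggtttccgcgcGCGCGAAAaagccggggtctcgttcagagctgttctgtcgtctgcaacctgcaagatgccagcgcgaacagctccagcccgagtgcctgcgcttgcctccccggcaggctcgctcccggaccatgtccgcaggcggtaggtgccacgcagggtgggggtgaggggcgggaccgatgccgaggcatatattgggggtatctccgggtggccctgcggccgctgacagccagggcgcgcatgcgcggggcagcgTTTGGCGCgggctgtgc
Uhrf1 window: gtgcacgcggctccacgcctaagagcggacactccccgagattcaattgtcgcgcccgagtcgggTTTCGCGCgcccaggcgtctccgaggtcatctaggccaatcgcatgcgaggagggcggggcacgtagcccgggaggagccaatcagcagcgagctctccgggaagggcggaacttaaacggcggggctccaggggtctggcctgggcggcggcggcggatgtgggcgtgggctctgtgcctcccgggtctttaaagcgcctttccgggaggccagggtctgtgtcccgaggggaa

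Both windows held 33 CpG dinucleotides, against a median of 7 over all windows, and 7 of the 8 genes had a window with at least 30, as had 12.9% of all genes with windows. Hdac5, with 18, was the exception. The shares of windows and genes with an E2F match were taken over all windows, with no matching for CpG content. Of the 421 tested genes with an E2F match in a window, 6 were called higher and 15 lower (4.99% in all, beside 4.63% of all tested genes, 243 higher and 388 lower), and their median log2 fold change was -0.04, beside 0.00 for all tested genes.

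Among the deacetylases, the class I genes had intervals that held 0. Hdac1, a catalytic subunit of the NuRD, Sin3 and CoREST complexes, was at 114 and 152 CPM in Cr25 and 123 and 117 CPM in control libraries. Its treated values lay on either side of the controls, with a log2 fold change of 0.15 (95% interval -0.32 to 0.61) that was -0.08 without Cr25 replicate 2. A processed copy, Hdac1-ps, is annotated on chromosome 17 and is not among the genes used here, so the Hdac1 count is uncertain where reads fit both. Hdac2, its close paralog, was at 104 and 127 CPM in Cr25 and 102 and 104 CPM in control libraries, and its interval ran from -0.21 to 0.54; the value was 0.16 with all libraries, 0.0070 without Cr25 replicate 2 and 0.31 without Cr25 replicate 1. Hdac3, the enzyme of the NCoR/SMRT complex, was at 82.3 and 85.9 CPM in Cr25, both above the controls at 76.1 and 80.5 CPM. Its interval ran from -0.18 to 0.38. Its log2 fold change was 0.10 as normalized, -0.011 with no normalization beyond library size, and 0.042 to 0.14 in fits that left out 1 library. For these 3 genes the intervals left room for no change and for changes of either sign, and Hdac3 had the narrowest of the 10.

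The class IIa genes differed most between the 2 treated libraries. Hdac5 (mm10 chr11, minus strand) was at 124 and 74.7 CPM in Cr25 and 54.0 and 53.7 CPM in control libraries. Both treated values were above the controls, and the log2 fold change was 0.88 (SE 0.266, 95% interval 0.17 to 1.60, adjusted p = 0.121, edgeR). DESeq2 gave 0.90 with an adjusted p of 0.0135. The size rested on the library: it was 0.48 without Cr25 replicate 1 and 1.20 without Cr25 replicate 2. Hdac7 was at 169 and 105 CPM in Cr25, on either side of the controls at 133 and 131 CPM, and its log2 fold change was 0.05 (SE 0.252). Its exons share 32 bp with Slc48a1 on the opposite strand, and with the use of strand in counting not given, reads there cannot be told apart. Hdac4 was at 27.1 CPM in Cr25 replicate 1, level with the controls at 28.7 and 25.3 CPM, and at 11.8 CPM in Cr25 replicate 2. Its log2 fold change of -0.47 (SE 0.419) was 0.01 without Cr25 replicate 2 and -1.18 without Cr25 replicate 1, and 6.04% of tested genes had a treated pair as far apart. In ratios within a library, chosen after the values were seen, Hdac5 came to 73.2 and 71.3 counts per 100 counts of Hdac7 in Cr25 and 40.7 and 40.9 in control libraries. Hdac4 came to 16.0 and 11.2 counts per 100 of Hdac7 in Cr25 and 21.6 and 19.3 in control libraries. The treated pair was thus close for the first ratio and not for the second.

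**Figure D2:**
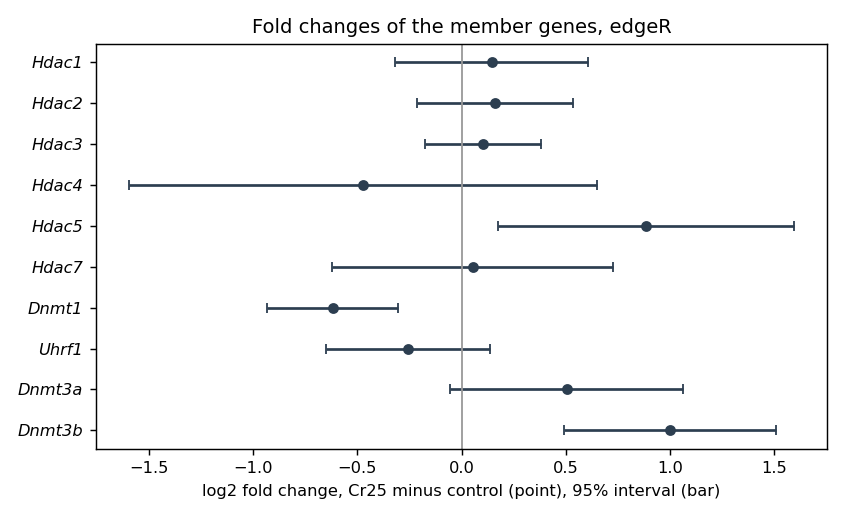
Log2 fold change, Cr25 minus control, of the 10 genes (points) with 95% intervals of the edgeR fit (bars, 2 libraries per group). The intervals of Dnmt1, Dnmt3b and Hdac5 do not reach 0, and that of Hdac4, from -1.59 to 0.65, is the widest.

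The difference between the treated libraries moved with the length of genes. Over tested genes with up to 2 kb of exons, Cr25 replicate 1 was lower than replicate 2 by a median log2 difference of -0.26, and over genes with more than 16 kb it was higher by 0.37, whereas the control pair went from -0.03 to 0.04. The class IIa genes Hdac4 and Hdac7 have 11.9 and 15.6 kb of exons. They were 1.19 and 0.69 higher on the log2 scale in Cr25 replicate 1 than in replicate 2, against a median of 0.30 for genes of 8 to 16 kb. Hdac5, the other class IIa gene, has 4.77 kb and was 0.73 higher in replicate 1, against a median of 0.14 for genes of 4 to 8 kb. Of the others, Dnmt3a, with 24.7 kb, was 0.51 higher in replicate 1. Hdac1, with 1.97 kb, was lower in replicate 1, with a difference of -0.41. Dnmt1, with 6.33 kb, was also lower, with -0.10, against the median of 0.14 for genes of 4 to 8 kb. Exon lengths here are unions, and the longest curated transcripts of Hdac7 and Dnmt3a are shorter, at 4387 and 9735 bp. The fold change between Cr25 and control moved with length too: its median over tested genes went from 0.08 at up to 2 kb of exons to -0.22 above 16 kb, and from 0.10 for genes spanning up to 10 kb to -0.49 for those over 200 kb. Hdac4 spans 267 kb and Dnmt3a 113 kb, and the other 8 members span 52.7 kb or less. The part of these length trends in the values of the members was not tested.

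**Figure D3:**
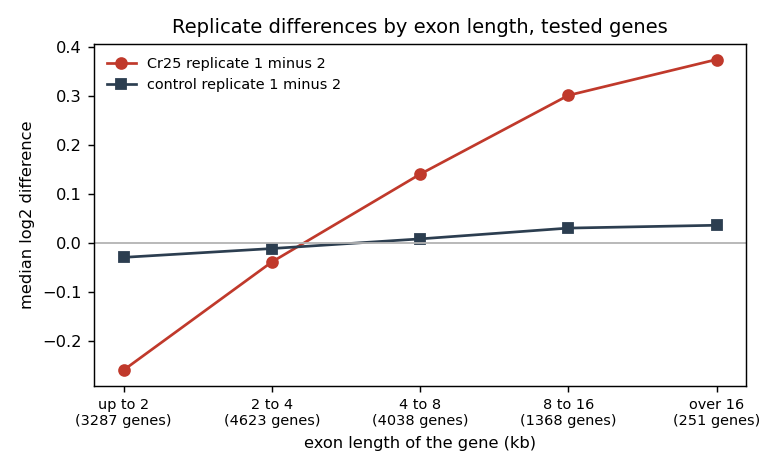
Median log2 difference between replicates 1 and 2, by exon length of the gene in kb, for the Cr25 pair (circles) and the control pair (squares). The Cr25 pair runs from -0.26 to 0.37, and the control pair from -0.03 to 0.04.

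Genes of related pathways were described from lists of 137 genes in all, of which 129 were tested and 3 called in edgeR, 2 higher and 1 lower, beside 4.63% of all tested genes. Their median log2 fold change was 0.03, and 35 had an unadjusted p under 0.05, beside 4176 of all 13619 tested genes. Without control replicate 1 or 2 the fit called 1 of them, and without Cr25 replicate 1 or 2 it called 111 and 92. DESeq2 called 11.

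Of the called genes, 2 belong to the partners and kinases of class IIa deacetylases. Camk2d, a calcium/calmodulin-dependent kinase that can phosphorylate class IIa enzymes, fell from 164 and 163 CPM in control to 89.5 and 68.4 CPM in Cr25 libraries, a log2 fold change of -1.05 (SE 0.165, adjusted p = 0.0488, edgeR). Camk2d spans 250840 bp, and tested genes over 200 kb had a median of -0.49; the part of length in this value was not tested. Prkd2, a protein kinase D, rose from 17.5 and 16.8 to 32.0 and 30.1 CPM, with a log2 fold change of 0.86 (SE 0.130, adjusted p = 0.0465, edgeR). The salt-inducible kinase Sik1, named after its values were seen, was at 65.5 and 141 CPM in Cr25 and 21.3 and 23.8 CPM in control libraries, with 2.20 on the log2 scale (SE 0.405, adjusted p = 0.0601, edgeR). The 14-3-3 gene Ywhae, which has the highest level per kb of exon union of the 20 genes of the list (per kb of the longest curated transcript Ywhaz is higher, at 305 against 302), had a log2 fold change of 0.01. Of these 20 genes 18 were tested, and Mef2c and Prkd1 were too low.

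The third called gene was Uhrf2, the paralog of Uhrf1, in the list of methyl-CpG readers and partners of DNA methyltransferases. It rose from 83.6 and 79.2 CPM in control to 130 and 130 CPM in Cr25 libraries, a log2 fold change of 0.67 (SE 0.103, adjusted p = 0.0467, edgeR). Per 100 counts of Uhrf1 there were 77.5 and 62.6 of Uhrf2 in Cr25 and 37.7 and 35.2 in control libraries. The other 13 tested genes of the list were not called, among them Pcna, the replication clamp, at 250 and 350 CPM against 258 and 257 CPM. The calls of Camk2d, Prkd2 and Uhrf2 each ended in fits without control replicate 1 or 2, which leave 1 control library. The log2 fold changes there were -1.06 and -1.07 for Camk2d, 0.87 and 0.81 for Prkd2, and 0.69 and 0.61 for Uhrf2. With no normalization beyond library size these calls also ended. The values were then -1.15, 0.75 and 0.56, with adjusted p from 0.0749 to 0.0954 (edgeR). Without the filter on low counts Prkd2 and Uhrf2 were at 0.0509 and 0.0542.

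In the HDAC1/2 complexes NuRD, Sin3 and CoREST, 35 of 35 genes were tested and 0 called in edgeR, while 10 had an unadjusted p under 0.05. The median log2 fold change was 0.15, with 25 values above 0. Over all 13619 tested genes, 4176 had an unadjusted p under 0.05 and 6758 a value above 0. Rbbp7, a histone-binding subunit, was at 445 and 469 CPM in Cr25 and 310 and 310 CPM in control libraries (log2 fold change 0.56, SE 0.124, adjusted p = 0.0772, edgeR). The 5 genes of the NCoR/SMRT complex around Hdac3 had a median of -0.14, and Gps2 was at 39.5 and 37.9 against 34.0 and 34.7 CPM. Of the other deacetylases, Hdac6 had a log2 fold change of 0.19 (0.0018 without Cr25 replicate 2 and 0.36 without Cr25 replicate 1), Hdac11 had 0 counts in all 4 libraries, and Hdac9 was too low to test; the 7 sirtuins were tested with 0 called and a median of -0.15, and Sirt2 had a value of -0.33. Sirt1, named after its values were seen, was at 40.2 and 42.9 CPM in Cr25 and 26.8 and 27.1 CPM in control libraries (log2 fold change 0.63, SE 0.117, adjusted p = 0.0609, edgeR). On the opposite side of acetylation, 13 acetyltransferases had a median of -0.20 with 0 called, and Hat1 had 0.07.

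Of the BET family readers of acetyl-lysine, Brd2 was at 619 and 932 CPM in Cr25 and 372 and 375 CPM in control libraries, with a log2 fold change of 1.05 (SE 0.240, adjusted p = 0.0817, edgeR). Genes of 5-methylcytosine removal were not called: 5 of 6 were tested, with a median of -0.12, and Tdg, a glycosylase, had -0.21. In the S-adenosylmethionine cycle, which supplies methyl groups, 10 of 12 genes were tested with 0 called and a median of -0.36. Negative values were found for 7 of the 10 and an unadjusted p under 0.05 for 6. Of all 13619 tested genes, 6858 had negative values and 4176 an unadjusted p under 0.05. Ahcy, which clears S-adenosylhomocysteine, was at 546 and 787 CPM against 483 and 503 CPM. Mat2a, which makes S-adenosylmethionine outside the adult liver and was named after its values were seen, was at 161 and 107 CPM in Cr25 and 274 and 266 CPM in control libraries (log2 fold change -1.01, SE 0.223, adjusted p = 0.0772, edgeR).

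Since Dnmt1 and Uhrf1 are expressed with DNA replication, 16 S phase genes of the E2F programme were set beside them. All 16 were tested, 0 were called in edgeR, and the median log2 fold change was 0.02. An unadjusted p under 0.05 was found for 4 of them, beside 4176 of the 13619 tested genes. These 4 were named after their values were seen and were all lower in both Cr25 libraries than in both controls. Pola1 had a log2 fold change of -0.87, Ccne1 -0.55, Ccne2 -0.54 and Rrm1 -0.47. Pola1 spans 327622 bp, and tested genes over 200 kb had a median of -0.49. The part of length in the value of Pola1 was not tested. In the other direction, 2 of the 16 genes were higher in both Cr25 libraries than in both controls. These were Mcm7 (0.53) and Mcm4 (0.23), also named after their values were seen. Of all 13619 tested genes, 4392 were higher and 4634 lower in both Cr25 libraries than in both controls. Values above 0 were found for 9 of the 16, beside 6758 of the 13619 tested genes. Each of the 16 was lower in Cr25 replicate 1 than in replicate 2, with a median log2 difference of -0.43, as were Uhrf1 (-0.31) and Dnmt1 (-0.10). Rrm2, the highest of them per kb of exon union (per kb of the longest curated transcript Mcm7 is higher, at 113 against 101), was at 140 and 310 CPM in Cr25, on either side of the controls at 217 and 214 CPM. The part of this difference in the values of Dnmt1 and Uhrf1 was not tested.

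**Figure D4:**
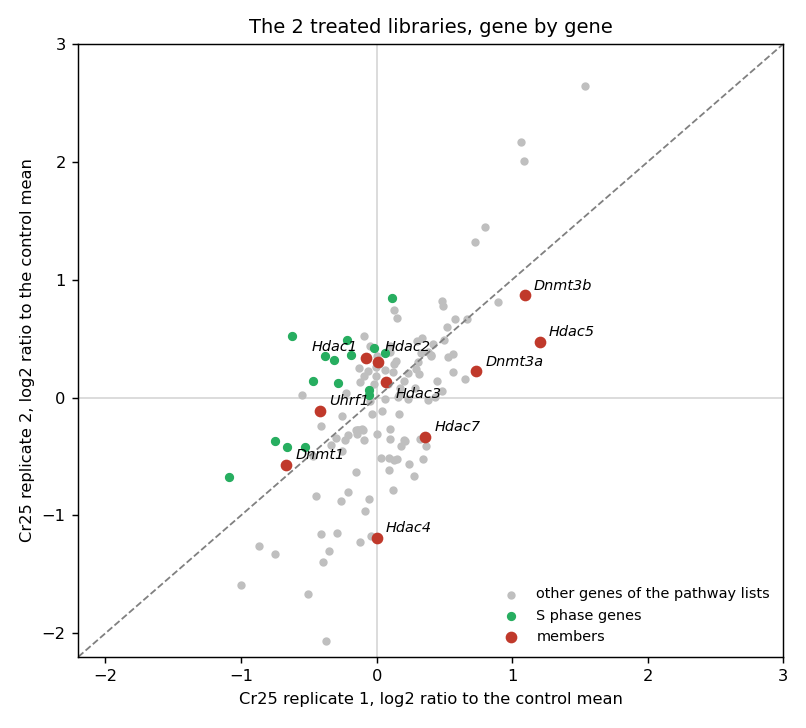
Log2 ratio to the control mean (pseudocount 0.1 CPM) of Cr25 replicate 1 (x axis) and Cr25 replicate 2 (y axis), 1 point per gene, for the 10 members, the 16 S phase genes and the other tested genes of the pathway lists. The S phase genes lie above the dashed line of equal ratios, Hdac4, Hdac5, Hdac7, Dnmt3a and Dnmt3b below it, and Hdac4 at 0.00 and -1.19.

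FAIRE peaks at the genes were read from the lists of regions open in treated against control cells, with a peak counted where any of its bases lay within 10000 bp of the annotated gene. There was 1 library per condition, so the peaks have no replicate check. The lists as used here hold fewer peaks than the authors reported for each regimen, so the absence of a peak is not shown by them. The acute list of 2945 peaks held 1 peak each for 2 of the 10 genes, Hdac4 and Dnmt1, and 6.42% of all annotated genes and 9.41% of protein-coding genes had an acute peak by the same rule. The long-term list of 860 peaks held 1 peak each for 2 of the 10, Dnmt1 and Hdac2, beside 1.98% of all annotated genes and 3.09% of protein-coding genes. Of these 4 peaks 1 lay inside a member gene. Without the extension 1 acute and 0 long-term peaks were left, and with 50000 bp there were 5 and 3. The sequences of the 4 peaks are shown because they are the peaks counted for the members, each on the plus strand of mm10 and, for the long-term peaks, as the central 300 bases. Capitals mark AP-1 letters, TGACTCA or TGAGTCA on either strand, which occurred in 12.0% of the acute peaks, of a median width of 120 bp, and in 22.8% of the long-term peaks, of a median width of 513.5 bp, so the shares cannot be compared directly.
Hdac4 acute peak: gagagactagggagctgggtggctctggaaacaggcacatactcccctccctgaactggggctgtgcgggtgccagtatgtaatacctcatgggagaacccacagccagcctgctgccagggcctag
Dnmt1 acute peak: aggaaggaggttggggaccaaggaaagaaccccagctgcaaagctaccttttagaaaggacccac
Dnmt1 long-term peak: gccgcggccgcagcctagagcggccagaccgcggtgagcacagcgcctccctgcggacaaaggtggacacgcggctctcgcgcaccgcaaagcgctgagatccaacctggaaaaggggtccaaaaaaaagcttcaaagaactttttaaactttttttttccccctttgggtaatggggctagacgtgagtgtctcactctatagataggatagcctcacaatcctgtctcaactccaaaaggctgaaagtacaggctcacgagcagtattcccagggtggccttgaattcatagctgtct
Hdac2 long-term peak: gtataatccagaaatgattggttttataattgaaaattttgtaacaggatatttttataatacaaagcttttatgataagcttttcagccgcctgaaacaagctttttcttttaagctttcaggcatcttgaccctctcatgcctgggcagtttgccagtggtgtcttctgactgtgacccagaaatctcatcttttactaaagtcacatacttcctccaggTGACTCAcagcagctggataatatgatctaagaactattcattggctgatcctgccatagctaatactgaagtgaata

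The Hdac4 peak (chr1:92100015-92100141, score 55.6) lay in an intron, 14.6 kb from the nearest annotated Hdac4 start, and held no AP-1 letters. Its score, the MACS p-value on a negative log10 scale multiplied by 10, was below the list's median of 57.2, and Hdac4 spans 267 kb: of the 990 protein-coding genes of 200 kb or more, 32.3% had an acute peak. The acute peak near Dnmt1 (chr9:20901689-20901753, score 53.2) was 65 bp wide and lay 5.45 kb beyond the 3′ end of Dnmt1, between genes, with the start of Eif3g, a translation initiation factor gene, as the nearest start at 3131 bp. At a minimum score of 60 neither acute peak was left.

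The long-term peak near Dnmt1 (chr9:20898531-20899040, score 71.1; printed from 20898636 to 20898935) overlapped the start of Eif3g, with its centre 195 bp away, and lay 8.17 kb beyond the 3′ end of Dnmt1. It is thus a peak at the start of the neighbouring gene, 53124 bp from the nearest Dnmt1 start. The long-term peak near Hdac2 (chr10:36964199-36964986, score 62.3; printed from 36964443 to 36964742) lay between genes, 9.31 kb upstream of Hdac2, and its TGACTCA was the 1 AP-1 match in the 4 peaks. No peak centre of either list lay within 9705 bp of a start of any of the 10 genes other than that Hdac2 peak at this distance, so 0 of the 10 had a peak centre within 1000 bp of a start, as against 1.09% of protein-coding genes in the acute and 0.905% in the long-term list. For Hdac1, Hdac5 and Dnmt3a the nearest acute peak was 495, 104 and 377 kb from a start.

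**Figure D5:**
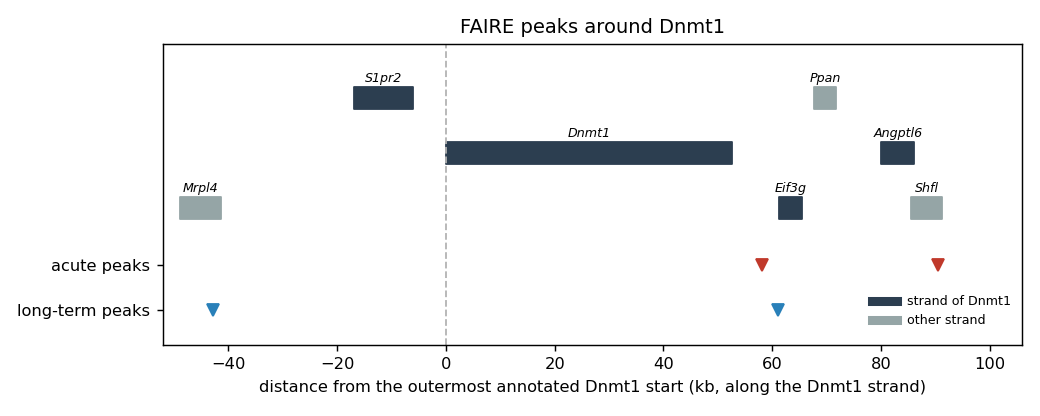
Protein-coding genes (bars, shaded by strand) and FAIRE peaks (triangles at peak centres) around Dnmt1, in kb from its outermost annotated start along its strand. The peaks counted for Dnmt1 lie beyond its 3′ end, the long-term one at the start of Eif3g.

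Of the 137 pathway genes, 15 had an acute and 8 a long-term peak within 10000 bp (10.9% and 5.84%), beside 9.41% and 3.09% of protein-coding genes. In the long-term list, peaks with their centre within 1000 bp of a start were found at Brd2, Sin3a, Gps2 and Ywhae, 4 of 137 genes beside 0.905% of protein-coding genes, and the acute list also held such a peak at Brd2. The RNA values of Brd2 in the acute comparison are given above.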

How the data were processed

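RNA was measured in 4 and FAIRE DNA in 4 libraries. The deposited read counts per Entrez gene are raw; the authors prepared poly-A RNA, aligned reads to mm10 with TopHat and did not normalize them. The counting tool, annotation and use of strand are not given in the sources used here. The deposited peak scores are MACS p-values on a negative log10 scale multiplied by 10, from reads that the authors aligned with BWA and peaks called at default settings in 1 treated against 1 control library; the lists as used here hold no read counts per peak. Peaks of the control cells and RNA-seq of the 0.5 µM regimen were not analysed here.

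Genes were kept by filterByExpr, scaled by TMM (factors 1.03 and 0.897 in Cr25, 1.04 and 1.04 in control) and tested two-sided with edgeR 4.0.16 in R 4.3.3, with no covariate; the steps were tested on simulated data. Levels per length are CPM per kb of exon union. Gene positions, promoters and sequences came from RefSeq on mm10. Named genes were the 10 members, list genes with an adjusted p under 0.05, the gene of each list with the highest level per length, all markers and all peaks at members; others are named as chosen after their values were seen. Members and lists were chosen with earlier results of these data known. Alternatives were DESeq2 1.42.0, a replicate block, no scaling, no filter, each library left out, other peak windows and score minimums, and, added after seeing the data, curated transcript lengths. Tables and figures used Python 3.11.15, numpy 2.4.6, pandas 2.3.3 and matplotlib 3.10.9.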

Additional observations from a re-analysis of the deposited data

How the results depend on the processing

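Of all tested genes, 631 were called, against 2073 with DESeq2 and 287 to 10995 with 1 library left out; the high values come from fits with 1 Cr25 library, whose spread is taken from the controls. For the members the count was 0, against 3 with DESeq2, 1 without normalization beyond library size and 0 to 10 with 1 library left out. For the pathway lists it was 3, against 11, 1 and 1 to 111. With a replicate block 2969 genes, 3 members (Dnmt1, Dnmt3b and Hdac5) and 19 list genes were called; the labels number the replicates in both groups, but same-numbered libraries deviated together only weakly (correlation over genes 0.0909, 2 pairs), so the numbers were not taken to pair them, and under the replicate block Rrm2 was at -0.049. The cause of these differences was not tested.

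Acute peaks at members numbered 1 without the extension, 5 with 50000 bp and 0 at scores of at least 60 or 100, against 2; long-term peaks numbered 0 without the extension and 0 at a score of at least 100, against 2. With the longest curated transcript as length, control levels were 51.4 for Hdac2, 3.34 for Hdac4, 12.5 for Hdac5, 30.1 for Hdac7, 57.5 for Dnmt1, 62.6 for Uhrf1, 2.43 for Dnmt3a and 1.13 for Dnmt3b CPM per kb, which follows from the shorter length.

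Without normalization beyond library size the median log2 fold change of all genes was lower by a shift of -0.11, and these values changed sign: Hdac3 -0.011, Hdac7 -0.035, Afp -0.094, Hat1 -0.055, Rrm2 -0.089 and Ywhae -0.11; relative to the median, Hdac3 was at 0.10 and Hdac7 at 0.08. Without the filter on low counts Ywhae was at -0.018. With 1 library left out, log2 fold changes that changed sign ranged from -0.078 to 0.35 for Hdac1, -1.18 to 0.0052 for Hdac4, -0.32 to 0.36 for Hdac7, -0.21 to 0.25 for Afp, -0.66 to 1.47 for Cd68, -0.13 to 0.26 for Hat1, -0.048 to 0.45 for Pcna, -0.17 to 0.77 for Pdgfrb, -0.62 to 0.53 for Rrm2 and -0.12 to 0.14 for Ywhae. The directions of Dnmt1, Uhrf1, Dnmt3a, Dnmt3b, Hdac2 and Hdac5 were the same in each alternative run.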
